A study of Mus musculus with 4 samples.

Results

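The 10 genes described here mark macrophage states and antigen presentation on class II molecules of the major histocompatibility complex (MHC) and were followed through 4 single-cell RNA libraries of mouse testis. They are C1qa, C1qb, C1qc, Cd74, H2-Aa, H2-Ab1, Lyz2, Spp1, Gpnmb and Acod1, taken by symbol, and all 10 were found among the 31017 symbols of the files. They were read over all kept cells of each library and in 114 macrophages of 23038 kept cells. All libraries came from Acr-Gfp transgenic C57BL/6 mice, whose reporter is driven by the Acr promoter of the male germ line. A pair of libraries held testes taken 7 days postpartum (dpp), cut up and kept as organ cultures for 2 days or for 7 days, on an agarose block under a PDMS-ceiling chip, in AlbuMAX-supplemented α-MEM. The other pair held testes taken at 9 dpp and at 14 dpp with no culture. The culture time added to the age at dissection gives the age of the matched testis, so the 2-day culture was set against 9 dpp and the 7-day culture against 14 dpp. Each group is 1 library, and the labels do not say how many animals were pooled in it. The label text on library making speaks of female gonads, while the tissue label of all 4 libraries is testis.

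C1qa, C1qb and C1qc encode the 3 chains of C1q, the protein that starts the classical complement pathway and tags dying cells for uptake, and tissue macrophages are its main source. Class II molecules present peptides to CD4+ T cells. H2-Aa and H2-Ab1 encode the α and β chain of the mouse molecule I-A, and Cd74 encodes the invariant chain that guards their peptide groove. Professional antigen-presenting cells make all 3, and interferon-γ can induce them in other cells through the transactivator Ciita. Lyz2 encodes lysozyme M of myeloid cells. Spp1 encodes the secreted glycoprotein osteopontin and Gpnmb a transmembrane glycoprotein of lysosome-rich phagocytes. Acod1 encodes the mitochondrial enzyme that makes itaconate in activated macrophages. The testis holds resident macrophages in the interstitium and around the tubules.

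The C1q genes lie side by side on the minus strand of chromosome 4 (GRCm38): C1qb at chr4:136880129-136886187, C1qc at chr4:136889804-136893065 and C1qa at chr4:136895917-136898803. The class II pair lies on chromosome 17, with H2-Ab1 on the plus strand at chr17:34257689-34269419 and H2-Aa on the minus strand at chr17:34282744-34287823. Lyz2 lies on the minus strand at chr10:117277331-117282321, Spp1 on the plus strand at chr5:104435118-104441050, Gpnmb on the plus strand at chr6:49036546-49070929 and Acod1 on the plus strand at chr14:103046977-103056573. Spp1 overlaps Gm42793 on the same strand, and Lyz2 has a close paralog, Lyz1, so reads of these pairs could be shared.

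The 250 bases before the RefSeq start (GRCm38.p6) are shown for a class II gene, a pair of C1q genes and Acod1, 3 groups whose levels across the libraries and cell sets are described in turn. Capitals mark AGGAAGT, the core bound by ETS factors such as PU.1 (ACTTCCT when it lies on the other strand), the Y box core CTGATTGG, and TGACGTCA, the letters of a cAMP response element as in the X2 box of class II promoters. The windows are chr17:34287824-34288073 (minus strand) for H2-Aa, chr4:136886201-136886450 (minus strand) for C1qb, chr4:136892915-136893164 (minus strand) for C1qc and chr14:103046762-103047011 (plus strand) for Acod1.
H2-Aa: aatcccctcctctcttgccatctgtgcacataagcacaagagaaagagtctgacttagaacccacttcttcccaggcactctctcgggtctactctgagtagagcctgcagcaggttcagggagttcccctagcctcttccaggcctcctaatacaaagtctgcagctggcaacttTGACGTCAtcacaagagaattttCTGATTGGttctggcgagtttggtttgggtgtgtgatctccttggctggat
C1qb: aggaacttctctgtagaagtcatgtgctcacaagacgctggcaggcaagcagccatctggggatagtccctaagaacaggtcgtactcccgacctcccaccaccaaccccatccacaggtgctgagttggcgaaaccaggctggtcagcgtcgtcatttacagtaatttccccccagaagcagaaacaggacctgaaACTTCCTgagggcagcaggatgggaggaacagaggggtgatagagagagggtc
C1qc: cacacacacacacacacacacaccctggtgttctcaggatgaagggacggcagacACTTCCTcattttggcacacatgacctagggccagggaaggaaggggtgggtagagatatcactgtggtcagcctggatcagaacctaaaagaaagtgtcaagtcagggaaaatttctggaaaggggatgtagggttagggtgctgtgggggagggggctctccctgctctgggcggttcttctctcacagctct
Acod1: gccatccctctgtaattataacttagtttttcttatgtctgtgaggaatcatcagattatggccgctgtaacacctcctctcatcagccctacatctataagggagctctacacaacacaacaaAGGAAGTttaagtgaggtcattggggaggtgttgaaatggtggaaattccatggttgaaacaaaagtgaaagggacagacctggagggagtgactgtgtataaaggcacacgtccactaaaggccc
The promoter of H2-Aa held TGACGTCA from 74 to 67 bases and CTGATTGG from 51 to 44 bases before the start, and no AGGAAGT. C1qb held AGGAAGT from 53 to 47 bases before its start, C1qc from 195 to 189 and Acod1 from 126 to 120. Of the 9 members looked for, 7 had an entry, and 5 of the 7 held AGGAAGT on either strand: C1qb, C1qc, Lyz2, Spp1 and Acod1. The same letters were in 7.69% of 32817 promoter windows of this length, CTGATTGG in 3.82% and TGACGTCA in 1.55%. CTGATTGG was found in 2 of the 7 members, H2-Aa and, from 49 to 42 bases before its start, Spp1. The motifs were chosen with the values of the genes known, they do not overlap, and a match is a description of letters and not of binding.

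Macrophages were set by markers that are not members. A kept cell entered the set with at least 1 unique molecular identifier (UMI, a counted RNA molecule) of at least 4 of 10 gate genes, among them Csf1r, Adgre1 or Mpeg1. After 2 days of culture 10 of 6877 cells entered the set, and after 7 days 19 of 4816. The testes gave 28 of 5150 cells at 9 dpp and 57 of 6195 at 14 dpp. These are 0.145% (exact Clopper-Pearson 95% interval 0.0698 to 0.267), 0.395% (0.238 to 0.615), 0.544% (0.362 to 0.785) and 0.920% (0.698 to 1.19) of cells. The log2 ratio of shares was -1.90 (-2.94 to -0.86) for the 2-day culture against 9 dpp and -1.22 (-1.97 to -0.47) for the 7-day culture against 14 dpp. With 1 library per group no test between groups was possible, and all intervals here are 95% intervals that cover counting error only. Of the sets, 10, 19, 26 and 51 cells carried at least 7 gate genes, and none carried fewer than 5. Unsupervised clustering put 112 of the 114 cells in 1 cluster of 130 cells.

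Depth differed strongly between the sets. Macrophages of the 7-day culture had a median of 38488 UMIs per cell, 6.90 times the median of their library, while those of the 2-day culture had 8213, those of 9 dpp 10660.5 and those of 14 dpp 8352. Summed UMIs were 87247 in the 2-day set, 700891 in the 7-day set, 305572 at 9 dpp and 526379 at 14 dpp. One UMI of the 2-day set is therefore worth 11.5 CPM (UMIs of the gene for every 1000000 UMIs of the set), against 1.43 CPM in the 7-day set. Markers of other cell classes were found in 0, 5, 3 and 16 macrophages, in the order used throughout: 2-day culture, 7-day culture, 9 dpp, 14 dpp. No T, NK or mast cell marker had a UMI in any set. Zbtb46, with at most 3 UMIs, was the only one of 6 dendritic markers present, and Cd79b the only one of 4 B cell markers. Of 6 neutrophil markers, S100a9, Retnlg and Ly6g were at 0 in every set, while S100a8 had 13, 68, 5 and 0 UMIs.

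The C1q genes were much lower in macrophages of both cultures. C1qa stood at 275 CPM (exact Poisson interval 176 to 409) in the 2-day set, 564 (509 to 622) in the 7-day set, 3921 (3702 to 4149) at 9 dpp and 3887 (3720 to 4059) at 14 dpp. The sets taken from testes differed by a log2 ratio of -0.01 (-0.12 to 0.09) and lay 14.3-fold above the 2-day set and 6.90-fold above the 7-day set. The log2 ratio of CPM plus 1, used for all ratios, was -3.83 (-4.48 to -3.25) for the 2-day pair and -2.78 (-2.95 to -2.63) for the 7-day pair. C1qb gave 149, 411, 2690 and 2411 CPM, with log2 ratios of -4.17 (-5.09 to -3.39) and -2.55 (-2.74 to -2.37). C1qc gave 80.2, 325, 3420 and 2783 CPM, with log2 ratios of -5.40 (-6.73 to -4.37) and -3.09 (-3.30 to -2.89).

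The same held cell by cell. At least 1 C1qa UMI was counted in 4 of 10 cells, 14 of 19, 26 of 28 and 56 of 57. The median macrophage held 0 C1qa UMIs after 2 days of culture and 8 after 7 days, although the latter cells were the deepest, against 39.5 at 9 dpp and 37 at 14 dpp. In the 7-day culture 1 cell gave 33.2% of all C1qa UMIs with 131, and 5 of the 19 cells had none. When each cell was thinned to 2000 UMIs, 3 of 10, 6 of 19, 26 of 27 and 51 of 55 macrophages kept at least 3 C1q UMIs. None of the 2332 to 3569 thinned germ cells of a library did, which is the background of free RNA. Between 96.0% and 100% of the UMIs of each C1q gene lay inside the macrophage set, so the genes were also low over the whole cultures: C1qa had 0.779, 10.7, 21.4 and 37.2 CPM there.

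**Figure D1:**
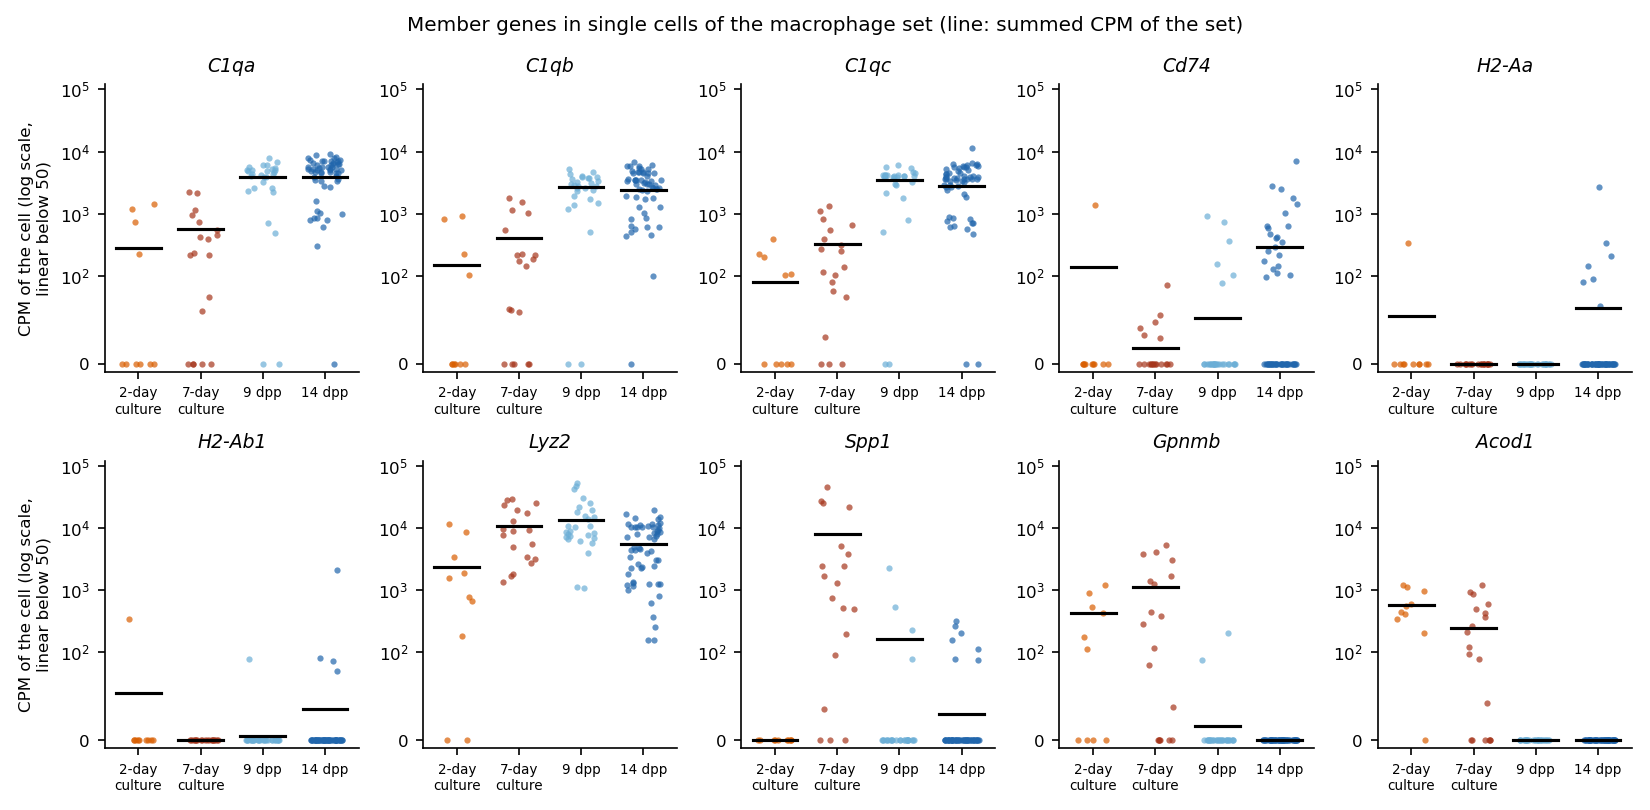
CPM of the 10 member genes in each macrophage (points; log axis, linear below 50 CPM) of the 4 libraries, with the summed CPM of the set as a line. C1q genes sit near 1000 CPM or lower in most cultured cells and above it in most cells of the 9 dpp and 14 dpp testes, while Acod1 points above 0 are found in the 2 cultures and in no cell of the other libraries.

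Acod1 showed the opposite pattern and was counted only in the cultured libraries. It had 573 CPM (425 to 756) in the 2-day set and 250 (214 to 290) in the 7-day set, and 0 UMIs in all cells of the 9 dpp and 14 dpp libraries. Against the floor of 3 UMIs per set, this is at least 58.4-fold higher in the 2-day set than at 9 dpp and at least 43.8-fold higher in the 7-day set than at 14 dpp. With counting error included, the log2 intervals began at 5.52 and 5.14, which are smaller folds. Acod1 was spread over the cells, with a UMI in 9 of 10 and in 13 of 19, and the top cell gave 22% and 18.9% of the UMIs. Of the Acod1 UMIs of the libraries, 92.6% and 98.3% lay in the macrophage set. In the cultures, 5 of the 9 and 8 of the 13 cells with Acod1 also had a UMI of a neutrophil marker. In macrophages without any such UMI, Acod1 stood at 541 and 271 CPM, close to the values of the whole sets.

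Gpnmb was likewise a gene of the cultured sets. It had 424 CPM (299 to 585) in the 2-day set, 1131 (1054 to 1213) in the 7-day set, 9.82 (2.02 to 28.7) at 9 dpp and 0 UMIs at 14 dpp. The 2-day set lay 43.2-fold above 9 dpp, a ratio of 37 to 3 UMIs with a log2 interval of 3.77 to 7.77. The 7-day set was at least 199-fold higher than 14 dpp against the floor of 3 UMIs, with a log2 interval from 7.33. Within the 2-day set 1 cell gave 22 of the 37 UMIs, and the set stood at 217 CPM without it. In the 7-day set 13 of 19 cells had a UMI, and the top cell gave 35.1%.

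Spp1 was high in 1 macrophage set, that of the 7-day culture. The 7-day set held 5691 UMIs, or 8120 CPM (7910 to 8333), in 16 of 19 cells, and the 2-day set held none. At 9 dpp there were 50 UMIs (164 CPM), 39 of them in 1 cell, and at 14 dpp 10 UMIs (19.0 CPM) over 7 cells. The 7-day set lay 427-fold above 14 dpp (log2 interval 7.86 to 9.80) and at least 236-fold above the 2-day set (log2 interval from 7.58). Cells of the 7-day set were far from uniform: they ran from 0 to 2378 Spp1 UMIs with a median of 30, and without the top cell the set stood at 5100 CPM.

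Lyz2 went in different directions in the 2 pairs. It had 2395 CPM (2082 to 2743), 10629 (10389 to 10874), 13565 (13155 to 13984) and 5483 (5285 to 5687). The 2-day set was 5.66-fold below 9 dpp (log2 ratio -2.50, -2.71 to -2.30), and the 7-day set 1.94-fold above 14 dpp (log2 ratio 0.95, 0.89 to 1.02). Between the testes themselves, 14 dpp was 2.47-fold below 9 dpp. Every macrophage of the 7-day, 9 dpp and 14 dpp sets had a Lyz2 UMI, against 8 of 10 in the 2-day set, where 82 of 209 UMIs came from 1 cell. The UMIs of Lyz2 lay to 95% or more in macrophages in each library. Over the whole library the 7-day culture stood at 204 CPM and 14 dpp at 53.4, a log2 ratio of 1.91. That difference turned to -0.26 when every cell was given the same weight.

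In macrophages the class II genes were sparse. Cd74 had 12 UMIs in the 2-day set, all in 1 cell that also held 3 UMIs each of H2-Aa and H2-Ab1 and none of the C1q genes. The 7-day set had 8 Cd74 UMIs over 6 cells (11.4 CPM), 9 dpp had 10 over 6 cells (32.7 CPM) and 14 dpp had 155 over 22 of 57 cells (294 CPM, 250 to 345). The 14 dpp set therefore lay 25.8-fold above the 7-day set (log2 interval of the latter against the former -5.93 to -3.67) and 9.00-fold above 9 dpp (log2 interval 2.25 to 4.26). In the cluster of 130 cells the log2 ratio of Cd74 between 14 dpp and 9 dpp was 0.82, under 2-fold, against 3.13 in the gated sets. H2-Aa had 3, 0, 0 and 21 UMIs, and H2-Ab1 had 3, 0, 1 and 12. At 14 dpp 10 of the H2-Aa and 8 of the H2-Ab1 UMIs came from a single cell, the one richest in Cd74 with 26 UMIs. That cell also had 26 C1qa and 44 Lyz2 UMIs, 9 gate genes and the B cell marker Cd79b, which 11 of the 57 macrophages of 14 dpp carried. A count of 0 in the 7-day set allows up to 5.26 CPM by the exact Poisson interval, and the 14 dpp level of H2-Aa, 39.9 CPM, lies above that limit.

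Counted as a group, 3 of the 8 members with at least 10 UMIs in the pair were 2-fold or more higher in the 2-day macrophages than at 9 dpp and 5 were lower, beside 13.6% and 36.3% of 7174 genes. The higher ones were Cd74, Gpnmb and Acod1, and Cd74 rests on 1 cell, without which the set held no Cd74 UMI. In the 7-day pair 3 of 10 were higher (Spp1, Gpnmb, Acod1) and 6 lower, beside 8.22% and 19.1% of genes. The median log2 ratio was -3.16 and -2.67 over the members, against -0.48 and -0.24 over all genes. Of the genes past 2-fold in the 7-day pair, 30.1% were higher, and 49.1% when the sets were scaled by edgeR's trimmed mean of M values, which moved the median of all genes to 0.04. Between 14 dpp and 9 dpp 3 of 8 members, the class II genes, were higher and 2 lower in macrophages, beside 12.4% and 6.7% of genes. None was higher when the cluster of 130 cells stood in for the gate. From the 2-day to the 7-day culture 6 of 8 were higher and 2 lower, beside 30.7% and 10.6%.

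Genes of macrophage states that are not members were counted from 5 lists, chosen with earlier results of these data known. Of the resident macrophage list, 11 of 13 genes with enough UMIs were 2-fold or more lower in the 2-day set and 12 of 13 in the 7-day set, beside 36.3% and 19.1% of all genes, and none was higher. The interval left out 0 for 9 and for 12 of them. Lyve1 and Timd4, with 13 and 6 UMIs at 9 dpp, had none in the small 2-day set and are the 2 whose interval held 0. F13a1, the A chain of coagulation factor XIII, had 34.4, 0, 1594 and 921 CPM. Vsig4, a complement receptor, had 0, 1.43, 88.4 and 146 CPM, from 4 of 28 cells at 9 dpp, 1 of them with 77.8% of the UMIs, and 7 of 57 at 14 dpp. Lyve1, a hyaluronan receptor, had 0, 0, 42.5 and 30.4 CPM, from 5 cells at 9 dpp, 1 of them with 53.8% of the UMIs, and 11 at 14 dpp. F13a1 was spread more widely, over 25 and 43 cells. Most resident markers therefore took the side of the C1q genes in both pairs.

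Of the phagocytic and lipid list, 8 of 14 genes were higher and 1 lower in the 2-day set, and 12 higher and none lower in the 7-day set, all with intervals that left out 0. Of all genes 13.6% and 8.22% were higher. Lgals3, a galectin of phagocytes, had 4035, 5504, 275 and 256 CPM. Mmp12, the macrophage elastase, had 287, 435, 0 and 0 CPM, with all 25 UMIs of the 2-day set in 1 cell and 68.5% of those of the 7-day set in 1 of 8. Another of the 8 genes higher in the 2-day set also had all its 10 UMIs there in 1 cell. The intervals do not cover such a spread between cells. Trem2, a lipid-sensing receptor, was the lower one of the 2-day pair, at 287 against 1021 CPM. Gpnmb and Acod1 thus had company in the cultured macrophages, with Spp1 joining in the 7-day set.

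Of the inflammatory activation list, 10 of 11 genes were higher in the 2-day set and 9 of 11 in the 7-day set, beside 13.6% and 8.22% of all genes, and none was lower in either. From the 2-day to the 7-day set 9 of 11 were lower, beside 10.6% of all genes. Cxcl2, a neutrophil-attracting chemokine, had 2097, 729, 19.6 and 66.5 CPM. Saa3, an acute phase protein, had 5066, 30, 0 and 0 CPM, with 79.0% of the 442 UMIs of the 2-day set in 1 cell and the rest in 7 others. In the same library it had 29131 CPM in stromal or myoid cells, in 2065 of 2313 cells, and 474 CPM in Sertoli cells, and the part of free RNA in the macrophage value was not tested. Clec4e, a receptor for mycobacterial glycolipid and dead cells, had 848, 124, 3.27 and 0 CPM. The list was not higher in macrophages alone: in the 2-day pair 8 of 8 of its genes with enough UMIs were higher in stromal or myoid cells and 5 of 7 in Sertoli cells, beside 6.24% and 6.68% of all genes there. Acod1 followed the order of the cultures, with 573 CPM at 2 days and 250 at 7 days, whereas Spp1 and Gpnmb were higher at 7 days.

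Of the class II presentation list, 3 of 5 genes were lower in the 2-day set and 2 of 5 in the 7-day set, beside 36.3% and 19.1% of all genes, and none was higher. Of the 3, H2-DMa and H2-DMb1 had no UMI in the 2-day set. Set to the floor of 3 UMIs they were 1.81-fold and 1.14-fold lower, short of 2-fold. The log2 interval held 0 for H2-DMb1, with an upper limit of 0.33, but not for H2-DMa. H2-DMa, a chain of the peptide editor H2-M, had 0, 11.4, 62.2 and 112 CPM. Its partner H2-DMb1 had 0, 8.56, 39.3 and 32.3 CPM, and Lgmn, a lysosomal protease that trims the invariant chain, had 1238, 1347, 3567 and 2551 CPM. Of the monocyte list, 3 of 6 genes had enough UMIs. Of these, 1 was higher and 2 were lower after 2 days of culture, and none was higher and 2 were lower after 7 days, beside the same shares of all genes as above. The interval left out 0 for Ccr2 alone in the 2-day pair and for Ccr2 and Plac8 in the 7-day pair. Ccr2, the chemokine receptor that brings monocytes into tissue, had 0, 0, 58.9 and 122 CPM. Set to the floor of 3 UMIs it was 1.71-fold lower in the 2-day pair, short of 2-fold. Its 18 UMIs at 9 dpp lay in 3 of 28 cells, 1 of them with 55.6%, and those of 14 dpp in 13 of 57. Fn1, fibronectin, had 0, 14.3, 22.9 and 28.5 CPM. Plac8 had 45.8, 14.3, 9.82 and 43.7 CPM, on 4 against 3 UMIs in the 2-day pair. By the exact Poisson interval a count of 0 allows up to 42.3 CPM in the 2-day set, above the 9 dpp level of Fn1, and 5.26 CPM in the 7-day set.

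**Figure D2:**
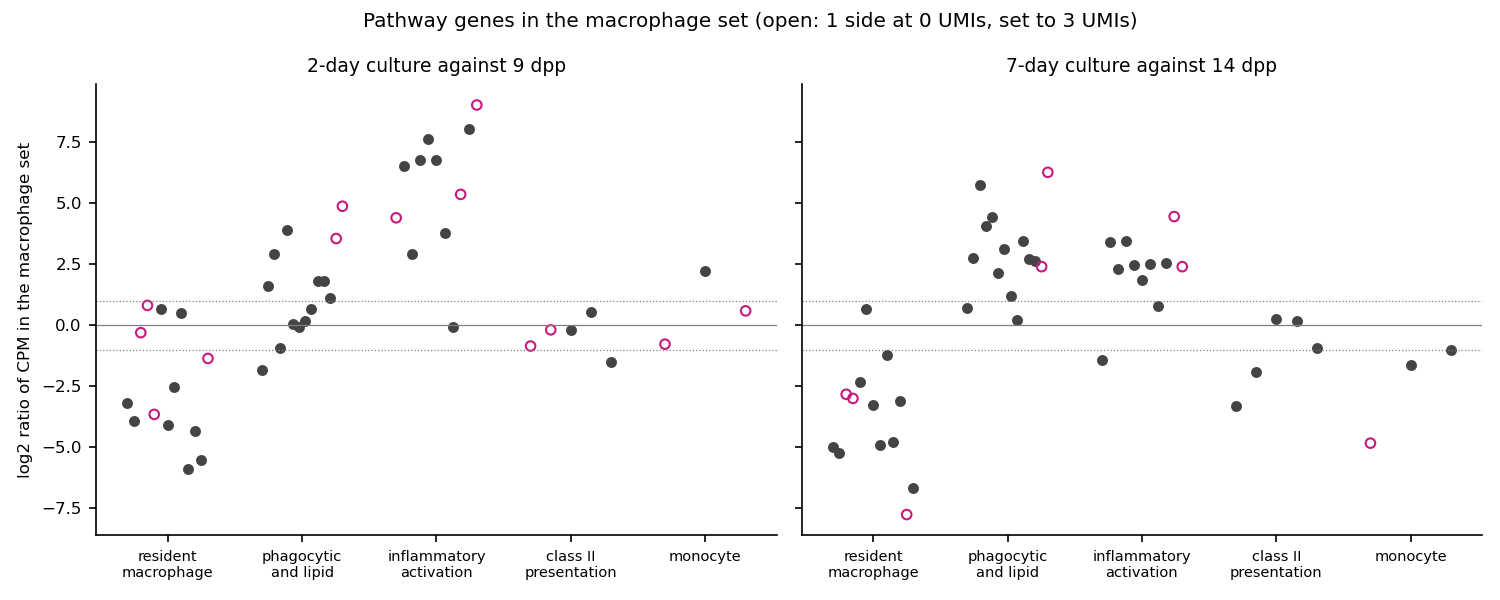
Log2 ratio of CPM in the macrophage set for each pathway gene with at least 20 UMIs, for the 2-day culture against 9 dpp (left) and the 7-day culture against 14 dpp (right). Open circles are genes with no UMI on 1 side, which was set to 3 UMIs. Dotted lines mark 2-fold. Most resident macrophage genes lie below 0 and most phagocytic and inflammatory genes above it in both panels.

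Over the whole library all 10 members were past 2-fold in the 2-day pair, 6 higher and 4 lower, beside 4.19% and 3.41% of 16616 genes. In the 7-day pair 4 were higher and 3 lower, beside 3.6% and 2.67%. The 2-day split of all genes past 2-fold was 55.2% higher, and 67.6% after the trimmed mean scaling. Over the libraries Cd74 had 24.0, 5.55, 1.20 and 5.41 CPM, H2-Aa 12.7, 3.21, 0.695 and 1.16, and H2-Ab1 23.6, 17.2, 5.54 and 19.2. All 3 were higher in the 2-day culture than at 9 dpp, 20.1-fold for Cd74, 18.2-fold for H2-Aa and 4.25-fold for H2-Ab1. Between 14 dpp and 9 dpp 2 of 9 members were higher and none lower, beside 4.09% and 1.97%, and the higher ones were Cd74 and H2-Ab1. From the 2-day to the 7-day culture 6 of 10 were higher and 2 lower, beside 4.52% and 2.37%.

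**Figure D3:**
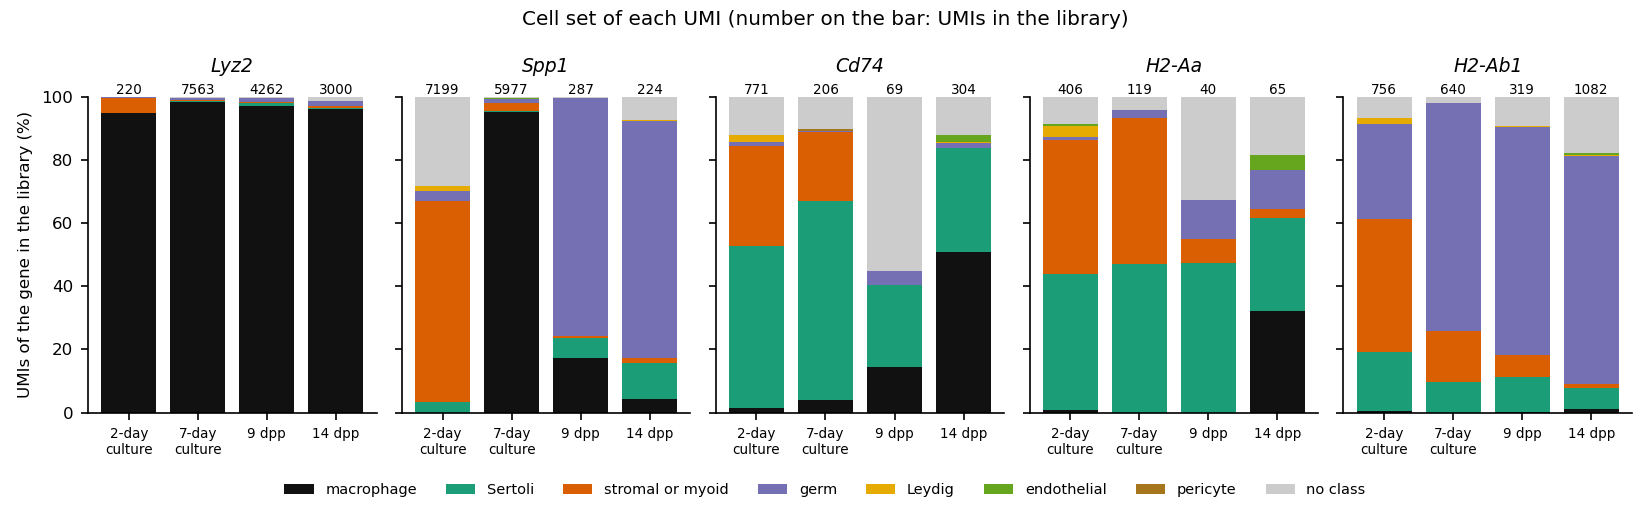
Share of the UMIs of Lyz2, Spp1, Cd74, H2-Aa and H2-Ab1 by the cell set that held them, in percent of the UMIs of the gene in each library (number above each bar). Lyz2 lies in macrophages throughout, Spp1 moves from stromal or myoid cells in the 2-day culture to macrophages in the 7-day culture, and H2-Ab1 lies mostly in germ cells outside the 2-day culture.

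Most class II transcripts lay outside macrophages. Other cells were put in sets by 8 markers for each class. In the cultures, Sertoli cells, which nurse the germ cells in the tubules, held 51.1% and 63.1% of all Cd74 UMIs, and stromal or myoid cells held 31.8% and 21.8%. Macrophages held 1.56% and 3.88% there, but 14.5% at 9 dpp and 51% at 14 dpp. The Sertoli set gave 60.0 CPM (54.2 to 66.3), 20.7 (17.3 to 24.5), 1.28 (0.761 to 2.03) and 10.3 (8.37 to 12.5). The 2-day culture was 46.7-fold above 9 dpp (log2 interval 4.87 to 6.32) and the 7-day culture 2.01-fold above 14 dpp (log2 interval 0.619 to 1.397). In the stromal or myoid set Cd74 gave 24.3, 6.84, 0 and 0 CPM, at least 71.6-fold and at least 10.1-fold higher in the cultures (log2 intervals from 5.85 and from 2.97). Germ cells, the background here, stayed at 0.756 CPM or below in all 4 libraries. In the small Leydig set of the 2-day culture 4 of 51 cells gave 18 Cd74 UMIs, and at 14 dpp 3 of 24 endothelial cells gave 6.

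H2-Aa was also higher in the cultures. It had 26.7, 8.90, 1.36 and 1.95 CPM in Sertoli cells and 17.1, 8.36, 0.339 and 0.453 CPM in stromal or myoid cells. The Sertoli set was 19.7-fold higher in the 2-day pair (log2 interval 3.61 to 5.06) and 4.55-fold higher in the 7-day pair (log2 interval 1.41 to 3.02). Between 9 dpp and 14 dpp, where Sertoli Cd74 was higher at 14 dpp (log2 ratio 2.30, interval 2.27 to 3.81 without the added 1), H2-Aa was 1.44-fold higher with an interval that included 0 (log2 -0.47 to 1.52). H2-Ab1 in stromal or myoid cells had 31.5, 15.7, 2.49 and 2.95 CPM, 12.7-fold and 5.31-fold higher in the cultures. In Sertoli cells H2-Ab1 had 21.6, 10.0, 2.50 and 7.61 CPM. Its 7-day difference there, 1.32-fold, had an interval that included 0 (log2 -0.11 to 0.90).

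**Figure D4:**
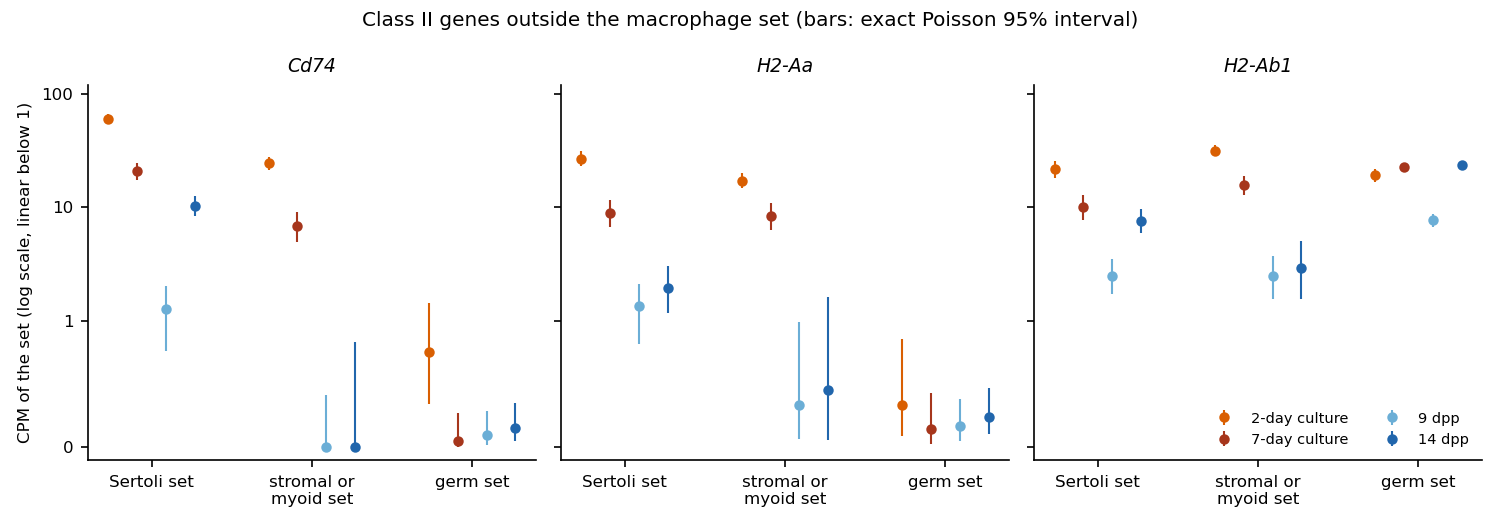
Summed CPM of Cd74, H2-Aa and H2-Ab1 in the Sertoli, stromal or myoid and germ sets of the 4 libraries (points) with exact Poisson 95% intervals (log axis, linear below 1 CPM). The 2 cultures lie above the testes in Sertoli and stromal or myoid cells for Cd74 and H2-Aa, and germ cells have H2-Ab1 at 7.65 to 23.4 CPM but little Cd74 or H2-Aa.

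A minority of the cells carried these transcripts. A Cd74 UMI was found in 173 of 1123, 56 of 525, 14 of 842 and 77 of 827 Sertoli cells. After thinning to 2000 UMIs the shares were 8.70%, 2.58%, 0.242% and 1.72%, against 0.172%, 0%, 0.040% and 0% of germ cells. All 3 class II members were found together in 24 and 13 Sertoli cells and in 26 and 7 stromal or myoid cells of the cultures, and in 0 such cells at 9 dpp and at 14 dpp. At 14 dpp none of the 77 Sertoli cells with Cd74 had H2-Aa, whereas 61 of 173 had it in the 2-day culture. One stromal or myoid cell of the 2-day culture held 33 Cd74, 33 H2-Aa and 34 H2-Ab1 UMIs and no UMI of a gate gene or of another leukocyte marker.

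Genes that are often induced with class II were compared between cells with and without Cd74, a choice made after values were seen. In Sertoli cells of the 2-day culture, those with Cd74 had 2.52-fold the CPM of the class I gene H2-K1 and 2.61-fold that of H2-D1. They also had 2.24-fold B2m, the class I light chain, and 2.46-fold Psmb8 and 2.55-fold Psmb9, subunits of the immunoproteasome. Cells with Cd74 were deeper, with a median of 6913 against 2946.5 UMIs, and the part of depth in these folds was not tested. In stromal or myoid cells, where depth was alike (3934 and 3720 UMIs), the folds were 2.21 for H2-K1, 2.11 for H2-D1 and 2.46 for Psmb8. Cxcl9, an interferon-γ-induced chemokine, stood at 263 CPM in stromal or myoid cells with Cd74 and 26.9 in those without. In the 7-day culture the folds were 1.78 for H2-K1 and 1.37 for Psmb8 in Sertoli cells, again deeper with Cd74 (16729.5 against 8435 UMIs). In stromal or myoid cells H2-K1 had 2.60-fold the CPM with Cd74, and Psmb8 had 309 against 91.1 CPM. Ciita itself was too sparse to compare. In Sertoli cells after 2 days it had 6 UMIs in the 173 cells with Cd74 and 5 in the 950 without. These are 4.04 CPM (1.48 to 8.79) and 0.985 (0.320 to 2.30), with intervals that overlap. After 7 days Ciita had 1 and 1 there. In stromal or myoid cells it had 1 and 1, and 0 and 2, where cells without Cd74 were again far more numerous.

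The presentation list was counted in the same sets. In the 2-day pair 3 of 7 list genes were higher in Sertoli cells and none lower, beside 6.68% and 5.8% of 13348 genes. H2-Eb1, the β chain of I-E, had 14.0, 6.35, 3.28 and 0.617 CPM there, and H2-DMa had 7.46, 3.81, 1.50 and 13.9. In the 7-day pair 1 of 7 was higher and 1 lower in Sertoli cells, beside 9.93% and 7.87%. In stromal or myoid cells 2 of 7 were higher and none lower in each pair, beside 6.24% and 7.18% of 13380 genes in the 2-day pair and 5.49% and 4.84% in the 7-day pair. Rfx5, Rfxap and Rfxank, subunits of the factor that binds the X box, were within 2-fold in both pairs and both sets.

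A few cells rich in class II transcripts carried B cell markers. The cell richest in Cd74 at 9 dpp, with 38 of the 69 UMIs of that library, carried the B cell markers Cd79a, Cd79b and Ms4a1. In the 2-day culture 1 of the 5 cells richest in Cd74 carried all of these and another carried Cd79a and Cd79b. None of these 3 cells belonged to a named set. Cd79b alone was also found in macrophages, among them the 2 richest in Cd74 at 14 dpp, with 26 and 25 UMIs. These cells were chosen after their values were seen.

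H2-Ab1 had a source that Cd74 and H2-Aa did not share. Germ cells held 30.3% of its UMIs after 2 days of culture, 72.0% after 7 days, 72.4% at 9 dpp and 72.2% at 14 dpp. The germ set had 19.2 CPM (16.8 to 21.9), 22.5 (20.5 to 24.7), 7.65 (6.69 to 8.70) and 23.4 (21.8 to 25.1). Of the germ cells with H2-Ab1, 98.9% to 100% had neither Cd74 nor H2-Aa. H2-Ab1 UMIs were seen in 185 of 2745, 340 of 2492, 158 of 2499 and 544 of 3639 germ cells.

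Within germ cells the transcript went with stage markers, in a comparison chosen after values were seen. Zbtb16 marks undifferentiated spermatogonia, and Meiob encodes a protein of meiotic recombination. Of germ cells with Meiob and no Zbtb16, 20%, 28.7%, 50.8% and 39.4% had an H2-Ab1 UMI. Of those with Zbtb16 and no Meiob, 0.725%, 1.26%, 0.796% and 1.75% did, although they were deeper in all 4 libraries. Thinned to 2000 UMIs, the shares were 16.0% (11.7 to 21.1), 11.2% (9.08 to 13.6), 23.3% (16.3 to 31.5) and 14.4% (12.1 to 17.0) with Meiob, and 0%, 0.318%, 0% and 0.678% with Zbtb16. The intervals of the 2 kinds of cell did not overlap in any library. Many germ cells with H2-Ab1 were of neither kind. Cells with Meiob and cells with Zbtb16 gave 62 and 2 of the 185 after 2 days and 234 and 4 of the 340 after 7 days. At 9 dpp they gave 67 and 7 of the 158, and at 14 dpp 327 and 13 of the 544. The rest had both markers or neither, and their stage was not looked at.

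**Figure D5:**
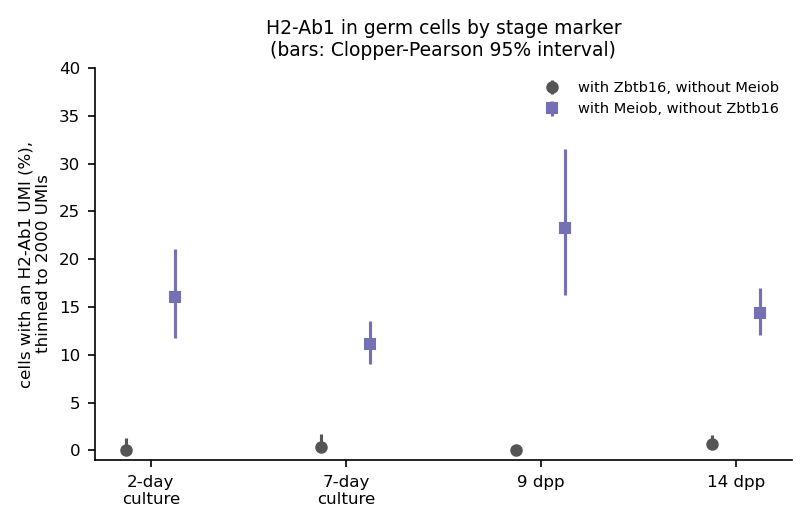
Share of germ cells with an H2-Ab1 UMI after thinning to 2000 UMIs, for cells with Meiob and no Zbtb16 (squares) and with Zbtb16 and no Meiob (circles) in each library, with Clopper-Pearson 95% intervals. Cells with Meiob lie between 11.2% and 23.3% and cells with Zbtb16 at 0.678% or below.

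Spp1 also changed its cells with time in culture. Over the library it had 224, 161, 4.98 and 3.98 CPM, 45.0-fold and 40.4-fold higher in the cultures than in the matched testes. In the 2-day culture 63.9% of its 7199 UMIs lay in stromal or myoid cells and none in macrophages, whereas in the 7-day culture 95.2% of its 5977 UMIs lay in macrophages. The stromal or myoid set had 456 CPM (443 to 469), 23.3 (19.7 to 27.3), 0.226 and 0.907. A single cell without a class gave 1053 of the 2026 Spp1 UMIs found in cells of no class in the 2-day culture. At 9 dpp and 14 dpp, 75.3% and 75% of the few UMIs lay in germ cells, at 7.15 and 5.03 CPM.

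Other sets of the 2-day culture had Spp1 too. The 51 Leydig cells, the steroid-making cells of the interstitium, had 119 UMIs (301 CPM) and none at 9 dpp, at least 124-fold higher in the culture (log2 interval from 6.63). Sertoli cells had 35.5 CPM against 1.28 at 9 dpp, and germ cells had 18.1 against 7.15. The part of free RNA in these values was not tested.

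Few cells of the stromal or myoid set carried most of its Spp1 in the 2-day culture. There, 80 of 2313 stromal or myoid cells with at least 10 Spp1 UMIs held 93.4% of the UMIs of the set. In these cells, chosen after values were seen, Cyp11a1, the first enzyme of steroid synthesis, had 259 CPM against 12.4 in cells without Spp1. Cxcl14, a chemokine, had 1711 against 141 CPM, and Timp1, an inhibitor of matrix proteases, 5849 against 1489 CPM. Median depth was 8096 against 3576 UMIs, and its part in these differences was not tested. Gpnmb was shared between macrophages and stromal or myoid cells, which held 60.0% of its UMIs in the 2-day and 16.1% in the 7-day culture, at 6.54 and 23.9 CPM.

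Genes with the most similar pattern were taken by Pearson's r of log2 CPM plus 1 over 28 cell sets (7 classes in 4 libraries), which share libraries and differ in depth, among 16596 genes. The mean of the 3 C1q genes was nearest to Dock2 (r = 0.99), Ms4a6c (0.99) and Ncf1 (0.99), and Lyz2 to Pirb, Fcgr1 and Tbxas1 (0.98 each). Acod1 was nearest to Gm5483 (0.99), Mmp12 (0.99) and Clec4e (0.98), and Gpnmb to Ptger4 (0.93), Il7r (0.89) and Atp6v0d2 (0.89). The mean of the class II genes had no close match, with Il18bp at 0.75, Il6ra at 0.69 and Npc2 at 0.67. Spp1 reached 0.73 with Slamf8, 0.71 with Map3k8 and 0.70 with 5033421B08Rik.

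The libraries held 32078508 to 57585867 UMIs in kept cells, and the median cell 3606, 5577.5, 8544.5 and 6447 UMIs. Between 35 and 86 cell barcodes were shared by a pair of libraries, at most 1.35% of either. Scrublet called no macrophage of the sets a doublet. Dates and batches are not in the labels, and culture and library cannot be told apart.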

How the data were processed

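Per the labels, cells were freed with collagenase and trypsin and sequenced from Chromium Single Cell 3ʹ v2 libraries. Per the submitters' processing notes, Cell Ranger 3.0.2 and mm10 were used. The deposited matrices hold raw UMI counts per gene and barcode, and no count was normalized by the authors. Other settings are not given in the sources used here.

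A barcode needed at least 500 genes and a mitochondrial share of at most 20%, and Scrublet calls (scanpy 1.11.5, expected rate 6%) were removed. Cells outside the macrophage set were classed by their markers (at least 3, and at least 2 more than any other class). CPM is the sum of a gene's UMIs in a set over all UMIs of that set. Ratios are log2 ratios of CPM plus 1, given where the pair held at least 10 UMIs of the gene in all. Folds in the text are plain ratios of CPM, and their intervals are exact and conditional on the sum. A side at 0 was set to a floor of 3 UMIs for "at least" folds. These folds leave out counting error, and the exact log2 interval of the pair reaches nearer to 0 than they do. Background counts used a minimum of 50 UMIs per gene in all libraries together, or of 20 in a cell set's 4 sums. Gene positions come from GENCODE M21 on GRCm38 and promoters from RefSeq on GRCm38.p6.

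Named genes were all members and, of each pathway list, up to 3 genes whose pairs had ratios of 1 sign, ranked by the smaller of the absolute ratios. Trem2, H2-Eb1, Cxcl9 and other genes outside this rule were chosen after their values were seen. Ifi30 of the class II presentation list was not used here, and some genes of the other lists enter counts but are not reported here by name. The members and lists were chosen with earlier results of these data known. Ratios and counts were checked on simulated data with known fold changes. Alternatives covered the added constant, scaling (edgeR 4.0.16, DESeq2 1.42.0 in R 4.3.3, for size factors only), cell filters, the macrophage gate, a Leiden cluster (leidenalg 0.10.2), thinning and equal weight per cell. With 1 library per group no test was run, and counts from reads of 1 library carry counting error only.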

Additional observations from a re-analysis of the deposited data

Results flagged for a closer look

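For 4 members the 2 pairs moved in opposite directions, each with an interval that left out 0. The difference between the pairs was not tested. Over the whole library, the log2 ratio of H2-Ab1 was 1.91 for the 2-day culture against 9 dpp and -0.15 for the 7-day culture against 14 dpp, and that of Lyz2 was -3.25 and 1.91. In macrophages Lyz2 had -2.50 and 0.95. Cd74 had 2.04 and -4.57 in macrophages, where the first value rests on 1 cell. Spp1 was at least 4.76-fold lower in the 2-day pair, where 39 of the 50 UMIs at 9 dpp came from 1 cell, and had a log2 ratio of 8.67 in the 7-day pair. No group had enough libraries to look for one that stands apart.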

How the results depend on the processing

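No paired analysis was possible because each group is 1 library. Of 652 member ratios recomputed under the alternatives, 545 moved by no more than the wider side of their counting interval. Where 1 side was at 0 UMIs that interval had no end, and only a change of direction could count as a move. The 545 therefore says nothing on how stable the size of such ratios was. Of ratios past 2-fold, 5 changed direction. Lyz2 over the library, 7-day culture against 14 dpp, was -0.26 with cells weighted equally. H2-Aa and H2-Ab1 in macrophages, 14 dpp against 9 dpp, were -0.12 and -0.61 in the macrophage-like cluster. Cd74 in macrophages was -5.08 in the 2-day pair and 3.63 for the 7-day against the 2-day culture without its top cell, an alternative chosen after seeing the data. With 10 added to the CPM, the whole library had 0 members higher at 14 dpp than at 9 dpp, and 2 higher and 1 lower in the 7-day than in the 2-day culture. With cells weighted equally 1 was higher at 14 dpp. In macrophages 0 were higher at 14 dpp than at 9 dpp in the macrophage-like cluster. From the 2-day to the 7-day culture 1 was lower without cells with markers of another class, with cells weighted equally or with TMM factors. The macrophage share at 14 dpp was 0.676% after thinning to 2000 UMIs and 0.662% without cells with markers of another class, and that of the 7-day culture 0.241% after the same thinning against 0.395% before, within its counting interval. With 0.1 added, genes past 2-fold, higher and lower, numbered 1091 and 1316 for the 2-day pair, 1090 and 984 for the 7-day pair, 1158 and 765 for 14 dpp against 9 dpp, and 1351 and 774 for the 7-day against the 2-day culture. The other 170 counts and shares stayed within 1.5 times or within their interval; the causes of the changes were not tested. Depth limits the 2-day macrophages most, where 3 UMIs are 34.4 CPM.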
